A study of Bos taurus with 11 samples.

Results

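The comparison of bovine embryos produced with serum and hormones with embryos produced without them rested on 7 of the 11 sequenced pools of inner cell masses (ICM), 3 “SC” pools and 4 “SF” pools. The pools were chosen by the treatment given in their labels. The “SF + PGE2” pools entered the filter on low counts, the scaling and the estimate of the spread, but not the contrast. All pools came from blastocysts on day 7, graded as high quality by the study, and 1 library was made from each pool of dissected ICM. The “SC” embryos were produced with fetal calf serum, and estradiol, FSH and LH were added while their oocytes matured. The “SF” oocytes matured with albumin in place of serum and without these hormones, and their maturation and fertilization media held DMSO, the solvent of prostaglandin E2. Development media of both groups held albumin, and that of “SF” lacked serum. The study names synthetic oviduct fluid from Minitüb as the base for “SC” and a modified synthetic oviduct fluid for “SF”. Both groups received epidermal growth factor during maturation, semen of the same bull and no prostaglandin E2. The study places serum in maturation and development, whereas the labels also name fertilization. Serum, hormones, the absence of the solvent and the other differences between the media went together in “SC” and cannot be told apart in these pools. By the study's account each embryo production session included every treatment, but nothing in the sources used here ties a pool to its session, and the p-values take no account of sessions.

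The ICM is the group of cells inside the blastocyst from which the epiblast, and with it the embryo proper, arises, and the outer trophectoderm contributes to the placenta. Serum carries growth factors, lipids and binding proteins of undefined amounts. FSH and LH are pituitary hormones that act on follicular cells, and through cumulus cells they drive oocyte maturation. Estradiol is a steroid made by granulosa cells. These agents met the oocyte and early embryo, and the measurement was made days later in the ICM. By the study's account, the trophectoderm had been removed by immunosurgery and by passage through a fine pipette. Pools are bulk samples, so that fewer cells of a type and less RNA per cell cannot be told apart.

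Estimated counts were given for 37925 Ensembl transcripts of the assembly ARS-UCD1.2, and 22067 passed the filter on low counts. This filter covered all 11 pools, so that a tested transcript may be at 0 in all 7 pools compared. None of the transcript identifiers was paired with a gene name in the tables used here (0 matched). The results are therefore by transcript, at most 2 transcripts in each direction are named, and neither the ICM identity of the pools nor gene groups could be checked against marker genes. Salmon shares out reads between transcripts of the same gene, so that a shift between isoforms also appears as a difference in 1 of them. The estimated counts summed to 32.5 M to 36.0 M per “SC” pool and 29.6 M to 40.6 M per “SF” pool. Between 20992 and 22389 transcripts were above 0 in an “SC” pool and between 20675 and 22887 in an “SF” pool. The pools of both groups were thus of like depth. The fragment length, taken as length minus effective length of transcripts over 2000 bases, was 482 ± 7.77 bases for the 3 “SC” pools and 464 ± 25.7 for the 4 “SF” pools (mean ± SD; exact two-sided permutation test, p = 0.343, adjusted p = 0.343). It was 426 bases in “SF” pool 35 and 472 to 482 bases in the other “SF” pools. The 10 transcripts with the most counts held 9.10% ± 1.31 of an “SC” pool and 7.84% ± 0.592 of an “SF” pool (exact permutation test, p = 0.143, adjusted p = 0.343). The top 1000 held 61.3% ± 0.622 and 60.1% ± 1.05 (exact permutation test, p = 0.229, adjusted p = 0.343). None of these 3 library measures was shown to differ. The smallest unadjusted p that 3 pools against 4 allow is 0.0286, so that 1 differing measure alone could not reach an adjusted p under 0.05.

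On average, pools of different treatment differed somewhat more from each other than pools of the same treatment, with overlapping ranges. For each pair of pools the median absolute log2 difference was taken over the 15615 transcripts whose normalized count averaged 50 or more. It was 0.421 to 0.554 for the 3 pairs of “SC” pools, with a mean of 0.476. For the 6 pairs of “SF” pools it was 0.328 to 0.563, with a mean of 0.482. The 12 pairs of an “SC” and an “SF” pool gave 0.463 to 0.716, with a mean of 0.548, which is 1.46-fold for a typical transcript. The 3 largest differences were those of “SF” pool 35 with the “SC” pools, at 0.646 to 0.716, and its differences from the other “SF” pools were 0.529 to 0.563. Without that pool, pairs within “SF” ranged from 0.328 to 0.484 and pairs between the groups from 0.463 to 0.566. Pairs share pools and were not tested.

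**Figure D1:**
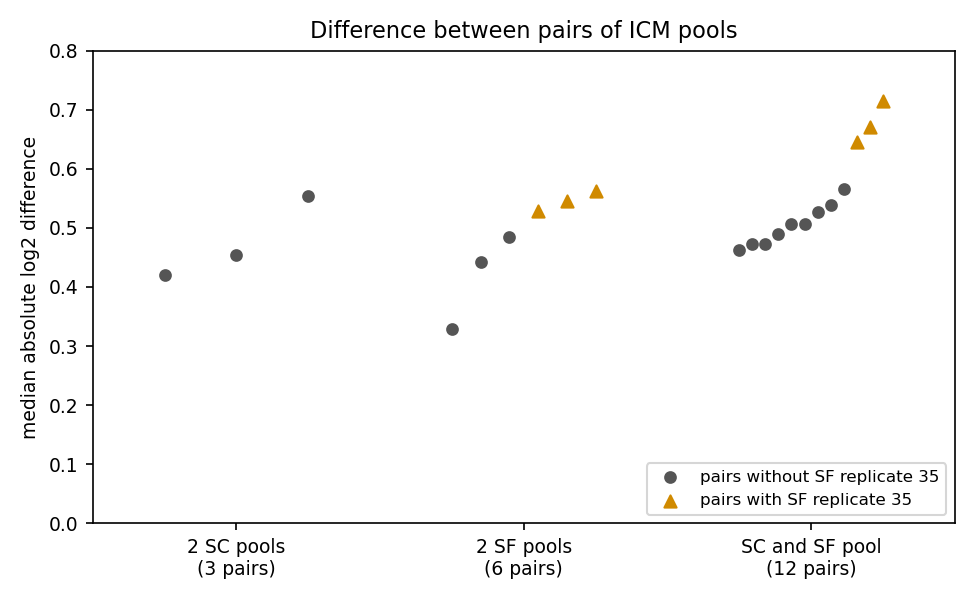
Median absolute log2 difference (vertical axis, log2 units) between each pair of pools, over 15615 transcripts, grouped by whether both pools were “SC”, both were “SF” or 1 of each. Points are pairs, and triangles are pairs that hold “SF” replicate 35. The 12 pairs between the groups lay at 0.463 to 0.716, and their 3 highest all held this pool.

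After adjustment over all 22067 transcripts, edgeR's quasi-likelihood test called 3 transcripts at an adjusted p under 0.05, which is 0.0136% of those tested. All 3 were lower in “SC” (0 higher), with an estimated count of 0 in every “SC” pool and above 0 in every “SF” pool. At an unadjusted p under 0.05, 1206 transcripts were higher in “SC” (5.47% of those tested) and 1394 were lower (6.32%). With DESeq2 the number called was 859, of which 334 were higher and 525 lower in “SC” (4.09% of the transcripts it gave an adjusted p). limma-voom called 0 transcripts (smallest adjusted p = 0.0687), with 1570 higher and 1250 lower at an unadjusted p under 0.05. Thus the 3 tools differed widely in how many transcripts passed, and limma-voom also in the balance of higher and lower. edgeR's 3 calls were all among those of DESeq2. Of DESeq2's 859 calls, 807 had an unadjusted edgeR p under 0.05 and all 807 had the same direction. They were 93.9% of DESeq2's calls and 31.0% of edgeR's 2600 transcripts. Among DESeq2's calls, 199 (23.2%) were at 0 in every pool of one group. A further 631 were above 0 in all 7 pools, out of 15573 such transcripts tested, with 276 of the 631 higher and 355 lower in “SC”.

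The number called by edgeR depended on single pools. It was 0 without “SF” pool 1 or “SC” pool 23, 1 without “SF” pool 35, 2 without “SF” pool 3, 5 without “SC” pool 25, 10 without “SF” pool 13 and 11 without “SC” pool 33. It was also 0 without “SF + PGE2” pool 5, 15 or 27 and 2 without pool 37, and fitting the 7 pools of the comparison alone gave 0 calls (smallest adjusted p = 0.225, and 2065 transcripts at an unadjusted p under 0.05). The number at an unadjusted p under 0.05 was 1898 to 2757 when each of the 11 pools was left out in turn.

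Most fold changes were small. The median of their absolute values over the tested transcripts was 0.48 on the log2 scale. Their signed median was -0.0075, a value that the TMM scaling holds near 0. Of the 15573 tested transcripts above 0 in all 7 pools, 2066 had an unadjusted p under 0.05 (13.3%), 995 higher and 1071 lower in “SC”. Of these 2066, 448 (21.7%) differed by less than 1.5-fold and 817 (39.5%) by 1.5-fold to 2-fold. A difference of 2-fold to 4-fold was seen for 705 (34.1%), and one of over 4-fold for 96 (4.65%), 47 higher and 49 lower. Below 1.5-fold, 193 were higher and 255 lower, and in the classes between 1.5-fold and 4-fold the numbers were 400 and 417, then 355 and 350. Of the 6494 tested transcripts at 0 in a pool or more, 534 (8.22%) had an unadjusted p under 0.05, 211 higher and 323 lower.

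**Figure D2:**
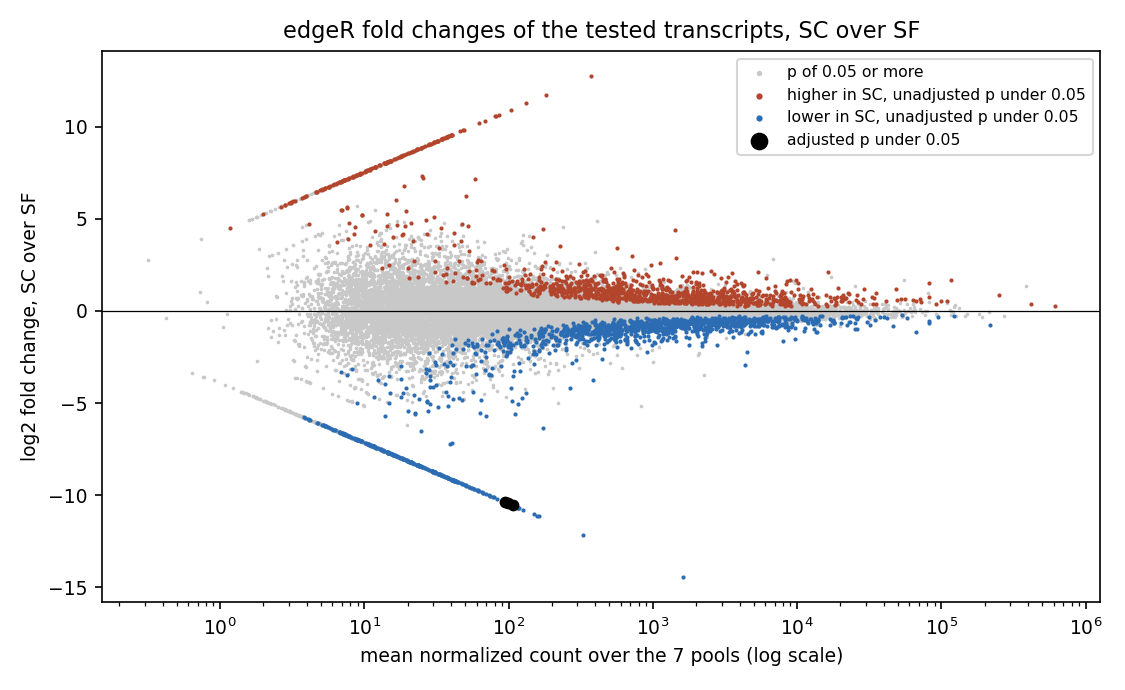
Fitted log2 fold change of “SC” over “SF” (vertical axis) against the mean normalized count over the 7 pools (horizontal axis, log scale) of the tested transcripts. Each point is a transcript, coloured where its unadjusted edgeR p is under 0.05 (1206 higher, 1394 lower in “SC”), and the 3 black points have an adjusted p under 0.05. The straight diagonal lines of points are transcripts at 0 in every pool of one group, whose fitted fold depends on a prior count and is not a measured fold.

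Among the transcripts called, ENSBTAT00000007652.6 had the smallest p. It is annotated at 1770 bases. Its normalized count was 0 in “SC” pools 23, 25 and 33. In the “SF” pools it was 170 in pool 1, 167 in pool 3, 253 in pool 13 and 105 in pool 35. The groups did not overlap, which the rule for naming a transcript required, and the means were 0 and 174 ± 60.9 (SD, n = 4). Its “SF” mean was at least 167-fold higher, with 3 counts over the “SC” group in place of 0 (edgeR, adjusted p = 0.0124). This bound covers counting error in “SC” only, not the spread between “SF” pools. The mean TPM was 0 in “SC” and 3.64 in “SF”. The transcript kept an adjusted p under 0.05 in 11 of 18 alternative fits. Its adjusted p was 0.0878 with limma-voom, 0.225 with the 7 pools fitted alone, and between 0.0518 and 0.0669 without “SF” pool 1, “SC” pool 23 or “SF + PGE2” pool 5, 15 or 27. The other 2 transcripts called were also at 0 in “SC”. They averaged 188 ± 113 and 165 ± 85.6 in “SF” (SD, n = 4), with 45.7 and 73.0 in their lowest “SF” pools. By the same bound, their “SF” means were at least 181-fold and 158-fold higher (edgeR, adjusted p = 0.0388 for each).

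ENSBTAT00000004747.5 had the smallest p among transcripts that were lower in “SC” and above 0 in every pool. It is annotated at 3532 bases. Its normalized count was 923, 802 and 1088 in “SC” pools 23, 25 and 33, and 3015, 3679, 2230 and 3610 in “SF” pools 1, 3, 13 and 35. As the naming rule required, every “SF” pool lay above every “SC” pool, and the lowest “SF” pool was 2.05-fold above the highest “SC” pool. The mean was 938 ± 143 (SD, n = 3) against 3134 ± 672 (SD, n = 4), a log2 difference of -1.74 (SE 0.231), or 3.34-fold. The adjusted p was 0.0621 with edgeR, 3.07e-10 with DESeq2 and 0.0719 with limma-voom. It did not pass edgeR's threshold. Its direction was the same in all 18 alternative fits (log2 difference -1.87 to -1.64). As the groups did not overlap by the naming rule, this direction could hardly turn. The 3 of 18 past the threshold were DESeq2, edgeR without a filter on low counts (adjusted p = 0.0445) and edgeR without “SF” pool 13 (adjusted p = 0.0279).

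ENSBTAT00000004192.6 had the smallest p of the transcripts that were higher in “SC”. It is annotated at 3229 bases. The normalized count was 379, 622 and 754 in “SC” pools 23, 25 and 33, and 102, 96.0, 114 and 84.1 in “SF” pools 1, 3, 13 and 35. The “SF” pools lay close together, the “SC” pools were spread over a wider range, and the lowest “SC” pool was 3.34-fold above the highest “SF” pool. The mean was 585 ± 190 (SD, n = 3) against 99.0 ± 12.3 (SD, n = 4), a log2 difference of 2.56 (SE 0.380), or 5.91-fold. The adjusted p was 0.0737 with edgeR, 1.87e-07 with DESeq2 and 0.0878 with limma-voom, so that only DESeq2 called it.

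ENSBTAT00000022033.6, annotated at 7374 bases, was a more abundant transcript and the next by p among those higher in “SC”. Its normalized count was 15442, 13984 and 10333 in “SC” pools 23, 25 and 33, and 6046, 4801, 5375 and 3044 in “SF” pools 1, 3, 13 and 35. The groups did not overlap, again by the naming rule, and the gap was 1.71-fold. The mean was 13253 ± 2632 (SD, n = 3) against 4817 ± 1286 (SD, n = 4), a log2 difference of 1.46 (SE 0.222), or 2.75-fold. Mean TPM, a level scaled by effective length, was 51.6 in “SC” and 19.1 in “SF”. Against this, the mean TPM of ENSBTAT00000004192.6 was 5.63 and 0.972. The adjusted p of ENSBTAT00000022033.6 was 0.0814 with edgeR, 1.30e-07 with DESeq2 and 0.0719 with limma-voom. For both transcripts 1 of 18 alternative fits, that of DESeq2, passed the threshold. All 18 gave the same direction, which could hardly turn between groups that did not overlap.

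**Figure D3:**
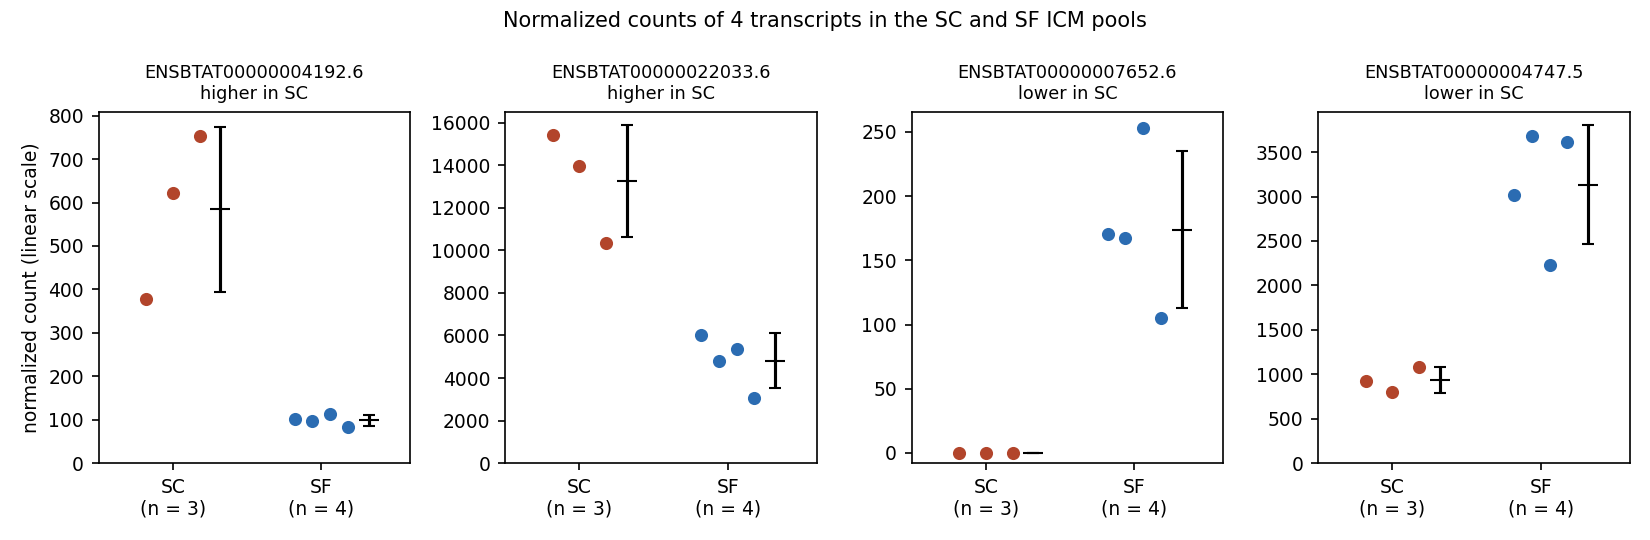
Normalized counts (vertical axes, linear scale) of 4 named transcripts in the 3 “SC” pools and 4 “SF” pools. Points are pools, and the bar beside them is the mean ± SD. The rule that named the transcripts required that the “SC” and “SF” pools do not overlap. ENSBTAT00000007652.6 is at 0 in all 3 “SC” pools.

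At a wider threshold, lower transcripts still outnumbered higher ones, but some were higher. At an adjusted p under 0.1 with edgeR, a threshold chosen after the calls had been seen, there were 20 of the 22067 tested transcripts. These 20 include the 3 calls, and 5 were higher and 15 lower in “SC”. Of the 20, 13 were above 0 in all 7 pools. The 5 that were higher had log2 differences of 0.87 to 2.56 and mean normalized counts of 307 to 9460, and the 8 that were lower had log2 differences of -1.83 to -1.20 and means of 570 to 5745. None of the 13 overlapped between the groups, and DESeq2 called all 13. As the 13 had been picked by a small edgeR p on the same counts, neither adds separate evidence. The other 7, with the 3 calls among them, were at 0 in every “SC” pool, with “SF” means of 53.9 to 574.

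The “SC” and “SF” pools did not overlap for 1279 transcripts higher in “SC” (5.8% of those tested) and 1228 lower (5.56%). Where the normalized count averaged 50 or more, the numbers were 1040 and 1060 of 15615 such transcripts. Of the 1040 and 1060, 413 and 403 differed by at least 2-fold between the group means. The distance between the groups was mostly narrow. Among the 1945 that were also above 0 in all 7 pools, the lowest pool of the higher group was a median of 1.14-fold above the highest pool of the other. The gap was at least 1.5-fold for 96 transcripts higher in “SC” and 113 lower.

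More transcripts were at 0 throughout “SC” than throughout “SF”. Where the other group averaged a normalized count of 50 or more, 112 of the 22067 tested transcripts were at 0 in every “SC” pool and 51 in every “SF” pool. The groups held 3 and 4 pools, so that a 0 in every pool was asked of fewer pools in “SC”. Such transcripts passed the filter on low counts only through the other pools, those of “SF + PGE2” included. More pools could carry a transcript that was at 0 in “SC” than one at 0 in “SF”. The difference between the 2 numbers was not tested. Of the 112, all 4 “SF” pools were above 0 in 24, 3 of the pools in 42, 2 in 38 and 1 in 8. Of the 51, all 3 “SC” pools were above 0 in 12, 2 in 33 and 1 in 6. In most of these transcripts, then, at least 1 pool of the other group was at 0 as well. The “SF” means of the 112 had a median of 74.6 and reached 2822, and the “SC” means of the 51 had a median of 80.7 and reached 868. At equal numbers of pools the contrast was smaller. Leaving out “SF” pool 1, 3, 13 or 35 gave 109, 112, 103 or 113 transcripts at 0 throughout “SC” and 90, 106, 86 or 76 at 0 throughout “SF”. Without 1 “SC” pool the 112 became 238 (pool 23), 196 (pool 25) and 234 (pool 33). In edgeR's fits without these pools, 23345, 23414 and 23370 transcripts were tested, more than the 22067 with all pools.

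Zeros also separated pools of the same group. A transcript was at 0 in a given pool, while the rest of its group averaged a normalized count of 50 or more, in 422, 665 and 525 cases for “SC” pools 23, 25 and 33. In “SF” there were 404, 316, 696 and 695 such cases for pools 1, 3, 13 and 35. Other pools of the group could be at 0 as well, so that a transcript may count for more than 1 pool. The part of such zeros in the calls was not tested.

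The share of transcripts with an unadjusted p under 0.05 in edgeR was larger among abundant transcripts. In 4 bins of the mean normalized count, 5516 or 5517 transcripts in each, it was 7.74% for means up to 38.2, 5.82% up to 180, 12.98% up to 912 and 20.6% above that. The median SE of the log2 difference fell over the same bins from 1.94 to 0.85, 0.40 and 0.22. In the highest bin 542 transcripts were higher in “SC” and 594 lower, and in the next 357 and 359. Lower transcripts outnumbered higher ones in bin 2, with 207 against 114, and in the lowest, with 234 against 193. At an unadjusted p under 0.05, limma-voom gave more higher than lower transcripts in each of the 3 lower bins, 204 against 108, 309 against 193 and 473 against 362. At an adjusted p under 0.05, DESeq2 called fewer higher than lower transcripts in those bins, 41 against 103, 26 against 102 and 79 against 105. Among less abundant transcripts edgeR and DESeq2 thus had the imbalance in the same direction and limma-voom in the other, at unlike thresholds for DESeq2.

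By transcript length, the share with an unadjusted p under 0.05 was 9.43% in the shortest of 4 bins, up to 1443 bases, and 12.9%, 13.3% and 11.5% in the next ones. In bin 3, from 2211 to 3312 bases, 292 transcripts were higher in “SC” and 442 lower. DESeq2 called 85 higher and 180 lower there at an adjusted p under 0.05, and limma-voom gave 365 and 403 at an unadjusted p under 0.05. This was the bin with the largest excess of lower transcripts in edgeR, and its sign was the same with all 3 tools. In the shortest bin more transcripts were higher in “SC” than lower with each tool, 281 against 239 with edgeR, 68 against 65 with DESeq2 and 394 against 234 with limma-voom. In bins 2 and 4 the balance turned between edgeR, with 340 against 374 and 293 against 339, and limma-voom, with 447 against 349 and 364 against 264. DESeq2 called 91 against 122 and 90 against 158 there, the direction of edgeR. The median log2 difference of all transcripts in a length bin lay between -0.02 and 0.00.

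Pools of the same group differed in the level of long transcripts. Relative to the mean of the 7 pools, the median log2(normalized count + 1) of the longest bin was 0.21, 0.05 and -0.10 in “SC” pools 23, 25 and 33 and 0.12, 0.31, -0.17 and -0.06 in “SF” pools 1, 3, 13 and 35. Both groups thus held pools with more and with less of the longest transcripts, and the groups overlapped. The part of this spread in the number of calls was not tested.

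**Figure D4:**
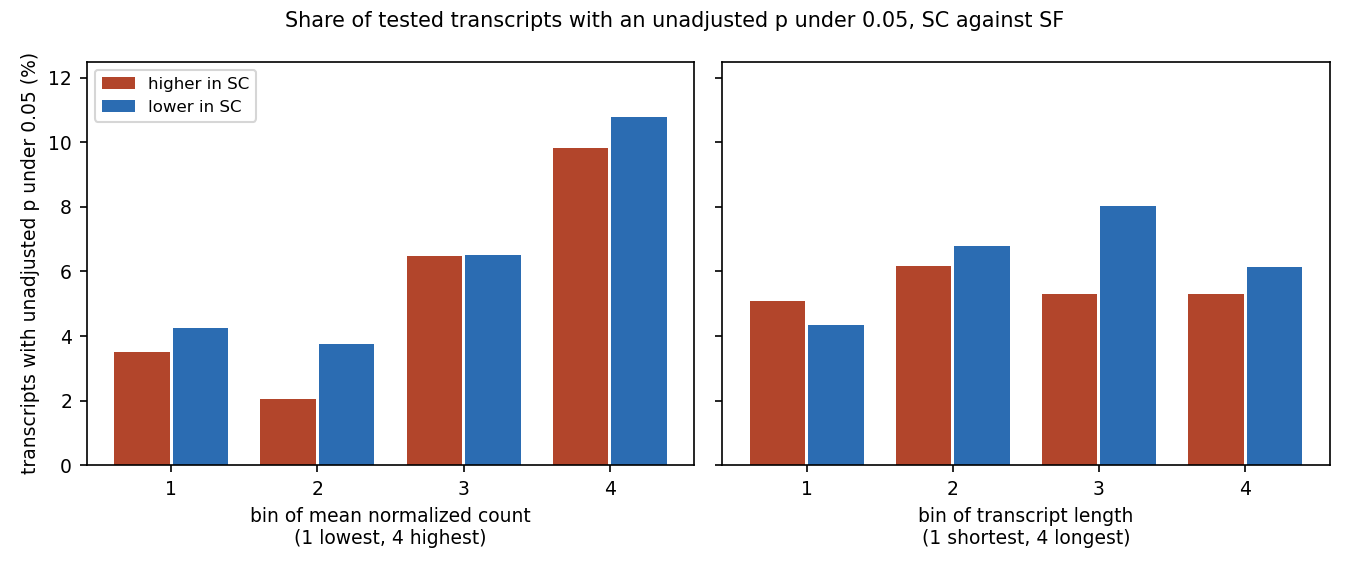
Share of tested transcripts with an unadjusted edgeR p under 0.05 (vertical axis, %) that were higher (red) or lower (blue) in “SC”, by bin of mean normalized count (left) and of transcript length (right). Each bin holds 5516 or 5517 transcripts. The shares rose to 9.82% higher and 10.8% lower in the most abundant bin, and bin 3 of length held 5.29% higher and 8.01% lower.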

How the data were processed

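RNA of 11 ICM pools was sequenced as paired-end SMART-Seq v4 and Nextera XT libraries without strand marks or molecular identifiers. Labels and paper give different RNA inputs and cycle numbers for the cDNA step. The authors ran Salmon 1.1.0 (version from the submitters' processing notes) on the Ensembl cDNA of ARS-UCD1.2. Deposited were the estimated count of each transcript, not normalized and not always whole, with its length and effective length in bases, and the TPM, which the authors' Salmon run scaled to 1000000 per pool. The study's own test used DESeq2 (1.26.0 in the submitters' notes) on gene sums, which were not used here.

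Rounded estimated counts were filtered with filterByExpr over the 3 groups. edgeR 4.0.16 (R 4.3.3) fitted all 11 pools with TMM, an offset for effective length and a coefficient per group. The contrast was “SC” minus “SF”, two-sided, with Benjamini-Hochberg adjustment over 22067 transcripts. Normalized counts were scaled by TMM and effective length. The SE of an edgeR log2 difference was not fitted but taken as its absolute value over the square root of the test's F statistic. Alternatives were DESeq2 1.42.0 (1069 adjusted p-values were NA and kept so), limma-voom (limma 3.58.1), RLE size factors, other filters, no length offset, the 7 pools alone and each pool left out. Pairs of pools and abundance bins had alternatives chosen after seeing the data. Library measures were compared with exact permutation tests over the 35 assignments of pools.

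The pools compared and the lists were chosen with earlier results of these data known. Without gene names the rule named, in each direction, the transcript with the smallest p and the one with the smallest p among those above 0 in all 7 pools, or the next by p where both were the same, provided that its normalized count averaged 50 or more and the groups did not overlap. Planned tests of genes, gene lists and markers were not run, as no identifier was paired with a gene (0 of 37925). No pools were identical. PCR reads are not independent molecules, so bounds cover counting error only. The study describes the replicates as separate pools of ICM, and p-values measure the spread between these pools. The scripts were also run on simulated counts, drawn with edgeR's estimate of the spread and without sessions. No result given here rests on them.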

Additional observations from a re-analysis of the deposited data

How the results depend on the processing

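The number of transcripts called was 3 with edgeR, 859 with DESeq2, 0 with limma-voom and 0 with the “SC” and “SF” pools fitted alone. In that last fit fewer pools set the filter and the scaling and estimate the spread, and 20239 transcripts were tested. The cause of the difference between tools was not tested. The number called by edgeR was 3 or 4 with RLE size factors, other filters or no length offset, and 0 to 11 with a pool left out. With a mean of at least 10 in the other group, 408 transcripts were at 0 in every “SC” pool and 165 in every “SF” pool, and with at least 200 there were 9 and 5. At the minimum of 50, leaving out a pool gave 103 to 238 and 46 to 106, and 3376 to 4871 transcripts did not overlap. Fewer pools were then compared, and the number tested changed as well. In edgeR's fits it was 21626 to 21827 without an “SF” pool and 23345 to 23414 without an “SC” pool, against 22067 with all pools. The median log2 difference with a pool left out was -0.047 to 0.014 in bin 2 of length and -0.079 to -0.015 in the highest bin of abundance, and it changed sign in the lowest bin of abundance (-0.141 to 0.117) and in the longest bin (-0.079 to 0.078), among others. At a mean of at least 200, chosen after seeing the data, pairs of pools differed by 0.389 within “SC”, 0.390 within “SF” and 0.454 between them. No direction of a named transcript turned, but the naming rule asked for groups that did not overlap, so that a turn was unlikely from the start. No paired analysis was possible because the “SC” and “SF” pools share no replicate number and no label ties a pool to the production sessions that the treatments shared. In edgeR's fit of all 11 pools the adjusted threshold was passed by no transcript above 0 in every pool, and a difference that missed it is not shown to be absent.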
